A study of Homo sapiens with 15 samples.

Results

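LLPSEp53_1 is 1 of the 2 constructs whose labels set them apart from p53 in a study of how the liquid-liquid phase separation of p53 bears on its activity. It was compared here with p53 overexpressed in the same year. The 6 libraries of the comparison were picked by their titles out of 15 in the series. All were RNA-seq libraries of total RNA from H1299 cells, a lung carcinoma line without p53 of its own, grown in DMEM with serum. Of the groups used, p53, LLPSEp53_1 and LLPSEp53_2 carry the year 2022, and wild-type p53 (WT) and a control vector (Ctrl) carry 2023, with 3 libraries each. The labels state that p53 replicate 2 was collected in a different batch, so p53 replicates 1 and 3 set the p53 level and replicate 2 is given beside them. What was changed in LLPSEp53_1 is not given in the sources used here, nor are the vector, the dose or the time after delivery. Whether replicates were separate cultures is not stated, and p-values therefore speak only for the spread among these libraries, possibly a technical one.

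p53 is a transcription factor that binds DNA as a tetramer and raises genes of growth arrest, death, repair and its own degradation. CDKN1A, the gene of the cell cycle inhibitor p21, and MDM2, the gene of the ubiquitin ligase that removes p53, are its standard reporters. Phase separation is the gathering of proteins into dense droplets, and the series title sets out to tune this property of p53. A p53-null line such as H1299 is a usual host for such tests because no endogenous p53 protein adds to the introduced one.

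Total counts of the 9 libraries of 2022 ran from 13535397 to 16438272, so that 3 counts, the limit that a count of 0 allows, correspond to 0.183 to 0.222 CPM. Levels below are CPM, read counts scaled to a common library size after TMM scaling. On the first principal component, 41.5% of the variance, p53 replicate 2 stood at -95.8 and the other 8 libraries between -9.90 and 30.0. On the second, 16.7%, p53 replicates 1 and 3 stood at 32.6 and 18.0. There LLPSEp53_1 ran from -44.6 to 21.8 and LLPSEp53_2 from -14.2 to 15.9. Within groups, chi-square values divided by their degrees of freedom were 6.76 to 112.1, above sampling noise for each pair, and each library counted as 1 replicate. The 4 markers of the line (KRT8, KRT18, VIM, NRAS) summed to 3214 to 3272 CPM in p53 replicates 1 and 3 and to 3039 to 4214 CPM with LLPSEp53_1. Of the lung epithelial markers, SFTPA1 and SCGB1A1 had no counts in the 6 libraries and all 7 summed to at most 8.81 CPM. PTPRC, CD3E and HBB of blood had no counts either.

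CDKN1A (ENSG00000124762) was at 284 and 286 CPM with p53 and at 399, 423 and 451 CPM with LLPSEp53_1, so that the groups did not overlap. Its log2 difference of 0.57 (SE 0.14) missed the threshold in edgeR (adjusted p = 0.0849) and passed it in DESeq2 (adjusted p = 0.0127). MDM2 (ENSG00000135679) was at 202 and 165 CPM with p53 and at 201, 234 and 154 CPM with LLPSEp53_1, with a log2 difference of 0.10 (SE 0.19, adjusted p = 0.849). Its groups overlapped. In p53 replicate 2 both targets were above the other libraries of p53 and LLPSEp53_1, at 723 and 368 CPM.

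**Figure D1:**
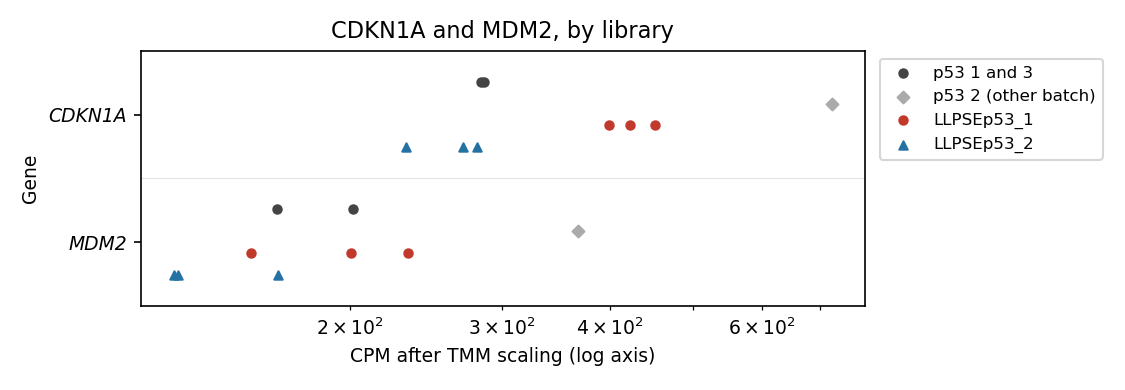
Levels of CDKN1A and MDM2 in each of the 9 libraries of 2022, in CPM on a log axis. Points are single libraries. CDKN1A is at 399 to 451 CPM with LLPSEp53_1, above p53 replicates 1 and 3 and below p53 replicate 2 at 723 CPM, while MDM2 overlaps between LLPSEp53_1 and p53.

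Of 110 established p53 target genes on a list, 101 were tested and 0 were called at an adjusted p under 0.05 in edgeR. Without adjustment 8 were higher and 5 lower, beside 5.72% and 7.34% of all genes tested, and DESeq2 called 2 higher. The median log2 difference of the list was 0.02, beside 0.00 for all genes. FDXR, a mitochondrial ferredoxin reductase gene, had the largest positive value. It was at 13.5 and 18.5 CPM with p53 and at 25.1, 27.0 and 39.3 CPM with LLPSEp53_1 (log2 difference 0.93, SE 0.22, adjusted p = 0.0849). APAF1, which encodes the scaffold of the apoptosome, was below 0. It was at 87.9 and 78.2 CPM against 62.2, 58.2 and 39.8 CPM (log2 difference -0.64, SE 0.18, adjusted p = 0.173). The lowest log2 difference of the list was -0.70, not that of APAF1. The death genes BAX and BBC3 had log2 differences of 0.38 and 0.27 (SE 0.21 and 0.27), and neither was called.

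Across the genome nearly all called genes were lower with LLPSEp53_1. Of 17459 genes tested, 155 (0.888%) passed the threshold in edgeR, 146 of them lower (0.836%) and 9 higher (0.0515%). Without adjustment 1282 were lower (7.34%) and 998 higher (5.72%). The falls had a median of 2.38-fold, and 110 of the 146 were at least 2-fold. In all 155 called genes the libraries of the groups did not overlap, which held for 26.9% of all genes tested. The calls rest on the same values, so this describes them and is no further support. These calls depended on single libraries. Leaving out p53 replicate 3 left 0 calls (smallest adjusted p 0.0529, with 744 lower and 890 higher without adjustment), leaving out p53 replicate 1 left 28 lower and 0 higher, and leaving out LLPSEp53_1 replicate 2 left 12 lower and 1 higher. Leaving out LLPSEp53_1 replicate 1 gave 425 lower and 143 higher. No called gene changed sign in any setting tried. As their groups did not overlap, leaving out a library could hardly change a sign, so this adds no support.

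The falling genes were GC-rich and long, and few of them were abundant. Of the 146, 144 were in GENCODE and 142 were protein coding, beside 13699 protein-coding genes among the 17459 tested. GC content and length were compared with all genes tested and not with protein-coding genes alone. Their transcripts had a median GC content of 59.0%, against 49.0% over all genes tested, and a median exon length of 5854 bases against 4419. With each library's trend with GC content removed, 143 of the 146 falls and all 9 rises were still called, among 224 lower and 34 higher in all. With p53, 59 of the 146 were under 10 CPM and 5 above 100 CPM. Among all 17459 genes tested 7217 were under 10 CPM, a similar share, and 2427 were above 100 CPM. The median level with p53 was 13.6 CPM for the falls and 17.8 CPM for all genes tested.

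The promoters of the falling genes were GC-rich as well. RefSeq (GRCh38.p14) gave the 250 bases before the start for 101 of the falling genes, 7 of the rising ones and 11987 of all tested. The median GC content of these promoters was 75.6% for the falls, 70.8% for the rises and 65.2% for all tested. A GC box (GGGCGG on either strand) was present in 79.2% of the falling promoters, in 57.1% of the rising ones and in 66.7% of all tested. The p53 half-site, searched by its standard consensus on both strands, was found in 3.96% of the falling promoters (those of SHH, LINGO1, NDRG4 and PCSK5), in 0 of 7 rising ones and in 4.51% of all tested. A match is a match of letters only. For 72 of 107 called genes with a GENCODE transcript, bases just after the RefSeq start were found in one of the gene's transcripts, so the windows of the others may lie away from the GENCODE start.

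Below are 3 of these promoters, 5′ to 3′ on the strand of the gene, as examples that do not show the range. The bases after the start were found in a GENCODE transcript for RNF144B and LINGO1 and not for CABP7. That of CABP7, a large fall, lies at chr22:29719753-29720002 (plus strand) and that of RNF144B, a rise, at chr6:18387100-18387349 (plus strand), with GC boxes in capitals. CABP7 is 75.6% GC and holds 5 GC boxes, some of them overlapping. RNF144B is 59.6% GC and holds 0. In that of LINGO1, a fall, at chr15:77820901-77821150 (minus strand), the capitals mark the p53 half-site.
CABP7: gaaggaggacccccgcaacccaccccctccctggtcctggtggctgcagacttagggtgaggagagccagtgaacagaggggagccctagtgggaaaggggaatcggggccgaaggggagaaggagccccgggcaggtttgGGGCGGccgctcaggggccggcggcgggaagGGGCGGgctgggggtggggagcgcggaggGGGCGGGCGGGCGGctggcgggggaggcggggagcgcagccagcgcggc
RNF144B: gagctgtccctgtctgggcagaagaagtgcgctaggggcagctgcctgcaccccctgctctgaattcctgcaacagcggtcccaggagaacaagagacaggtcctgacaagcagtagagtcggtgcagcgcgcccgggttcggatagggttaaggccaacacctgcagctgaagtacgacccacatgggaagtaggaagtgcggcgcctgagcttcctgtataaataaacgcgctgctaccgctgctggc
LINGO1: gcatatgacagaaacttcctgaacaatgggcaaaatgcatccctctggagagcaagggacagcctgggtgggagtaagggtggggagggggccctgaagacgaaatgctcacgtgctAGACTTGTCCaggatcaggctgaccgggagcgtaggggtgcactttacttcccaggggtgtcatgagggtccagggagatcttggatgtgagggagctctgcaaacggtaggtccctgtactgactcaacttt

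The steepest falls among genes of at least 1 in average log2 CPM were those of ELAVL3 and CABP7. ELAVL3, a neuronal RNA-binding protein gene (ENSG00000196361, chr19:11451326-11481046, minus strand), had 110 and 121 reads with p53, or 7.03 and 7.51 CPM. With LLPSEp53_1 it had 9, 12 and 4 reads, or 0.66, 0.80 and 0.25 CPM. It fell 12.8-fold (log2 difference -3.68, SE 0.38, adjusted p = 0.0022, edgeR). Every LLPSEp53_1 library was below both p53 libraries, a condition of this ranking, and p53 replicate 2 was higher still at 28.03 CPM. It shares 256 exon bases with another gene on its strand. CABP7, a neuronal calcium-binding protein gene (ENSG00000100314, chr22:29720084-29731839, plus strand), was at 6.14 and 5.64 CPM with p53. With LLPSEp53_1 it was at 0.44, 0.47 and 0.86 CPM. It fell 9.72-fold (log2 difference -3.28, SE 0.39, adjusted p = 0.00463), with p53 replicate 2 at 8.48 CPM, and 399 of its exon bases overlap ZMAT5 on the opposite strand. Strand use in the counting is not given.

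Receptors and channels of the nervous system were among the falls. Over 7 lists of ion channels and neurotransmitter receptors together, 16 of 135 tested genes were lower (11.9%, beside 0.836% of all genes tested) and 0 higher. Their median log2 difference was -0.54, with 112 below 0. Most of these lists were drawn up after earlier results were known, so the counts describe them and no test is given. Those of potassium and HCN channels and of metabotropic glutamate, aminergic and neuropeptide receptors were added after these values were seen. They hold 6 and 4 of the 16 calls, so the share of 11.9% is in part drawn from the values it describes. The summed neuronal markers (SNAP25, SYT1, RBFOX3, MAP2, TUBB3, STMN2), mostly SNAP25, were at 53.5 to 57.9 CPM in p53 replicates 1 and 3 and at 32.3 to 55.3 CPM with LLPSEp53_1. STMN2 had no counts, and 0 of the 4 tested were called. Their part in the result was not tested.

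Among the ligand-gated receptors, GRIN2C, a subunit of the NMDA glutamate receptor, was at 5.75 and 7.63 CPM with p53 and at 1.46, 1.14 and 2.15 CPM with LLPSEp53_1, a 4.18-fold fall (SE of log2 0.34, adjusted p = 0.017). It was the 1 call among 9 ionotropic glutamate receptor genes tested, whose median was -0.53. CHRNA4, a nicotinic acetylcholine receptor subunit, was at 4.41 and 4.47 CPM against 0.51, 1.47 and 0.86 CPM, a 4.62-fold fall (adjusted p = 0.017). CHRM4, a muscarinic receptor gene, was at 10.99 and 13.96 CPM against 2.42, 4.09 and 3.94 CPM, a 3.56-fold fall (adjusted p = 0.00535). These were 2 of 10 acetylcholine receptor genes tested. The groups did not overlap in any of the 3 genes, which was a condition of naming them. Among 14 GABA and glycine receptor genes tested, 0 were called by edgeR and 1 lower by DESeq2. Of the 14, 13 were below 0, 6 were lower without adjustment, and the median was -0.58. Over all genes tested 0.836% were lower, 7.34% were lower without adjustment, and 8733 of 17459 were below 0.

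A list of metabotropic glutamate, aminergic and neuropeptide receptors gave 4 falls among 17 tested, beside 0.836% lower over all genes tested. These were HRH3, GRM4, ADCYAP1R1 and ADRA1D, for histamine, glutamate, the peptide PACAP and adrenaline. GRM4 was at 6.07 and 8.31 CPM with p53 and at 1.76, 2.01 and 1.85 CPM with LLPSEp53_1, a 3.83-fold fall (adjusted p = 0.0142). HRH3 was at 3.07 and 3.47 CPM against 0.51, 0.13 and 0.43 CPM, an 8.97-fold fall (adjusted p = 0.00912), on counts close to the limit of detection. The other members of this list had a wide spread, and its upper quartile was above 0.

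Among 59 potassium and HCN channel genes tested, 6 were lower and 0 higher, and 52 had a log2 difference below 0 (median -0.54). The counts of this paragraph stand beside 0.836% lower over all genes tested, of which 8733 of 17459 were below 0. KCNK9, a leak channel gene, was at 5.37 and 5.77 CPM with p53 and at 1.24, 1.41 and 0.92 CPM with LLPSEp53_1, a 4.67-fold fall (adjusted p = 0.00912). KCNH2, the hERG channel of the heart, was at 18.0 and 18.9 CPM against 5.42, 7.04 and 6.59 CPM, a 2.90-fold fall (adjusted p = 0.00463). HCN4, KCNC1, KCNJ3 and KCNK3 completed the calls, at 2.22-fold to 3.32-fold lower. All 3 LLPSEp53_1 libraries were below both p53 libraries in these 6 genes, as in every gene called lower. Of 17 voltage-gated calcium channel genes, CACNA1B and CACNA1H were lower. CACNA1H, a T-type channel, was at 10.2 and 16.6 CPM against 4.17, 2.88 and 3.75 CPM, a 3.73-fold fall (adjusted p = 0.00595). SCN3B, an auxiliary sodium channel subunit, was the 1 call among 9 of its family.

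The receptors of Nogo, which convey inhibition of axon growth by myelin, gave 4 falls among 6 genes tested. The counts of this list and the next 2 stand beside 0.836% lower over all genes tested, of which 8733 of 17459 were below 0. RTN4RL1 was at 8.50 and 9.80 CPM with p53 and at 3.81, 1.61 and 2.34 CPM with LLPSEp53_1, a 3.56-fold fall (adjusted p = 0.0142). RTN4R, the Nogo receptor itself, was the most abundant, at 74.1 and 86.7 CPM against 39.9, 38.5 and 53.05 CPM (1.84-fold lower, adjusted p = 0.0287). The coreceptor genes NGFR and LINGO1 were 2.21-fold and 2.41-fold lower (adjusted p = 0.0216 and 0.0409). The median of this short list was -1.01. The axon guidance list gave 4 falls among 49 genes, PLXNA3, PLXND1, SEMA4D and SLIT2, with a median of -0.41 and 39 below 0. Among 35 genes of synaptic vesicles and release, SYT7 and RIMS4 were lower and the median was -0.18.

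Some signalling ligands and receptors of development were among the falls, in short lists whose counts stand beside 0.836% lower and 0.0515% higher over all genes tested. The lists of bone morphogenetic factors and of Notch genes were added after these values were seen. WNT7B, a secreted WNT ligand, was at 19.2 and 20.1 CPM with p53 and at 5.71, 6.37 and 6.22 CPM with LLPSEp53_1, a 3.22-fold fall (adjusted p = 0.00535). WNT9A went the other way and is described with the rises. The other 11 WNT genes tested were not called, and the median of the family was -0.52. Of 11 bone morphogenetic and growth differentiation factor genes, BMP8A, BMP8B and GDF7 were lower. BMP8B was at 21.7 and 21.96 CPM against 7.83, 8.17 and 7.32 CPM, a 2.80-fold fall (adjusted p = 0.0022). BMP8A and BMP8B are near-identical copies whose reads the counting could split, so their separate values are uncertain. In the Notch list of 15, the ligand gene DLL1 and the feedback and target genes NRARP and HEYL were lower by 1.81-fold to 1.96-fold. FGFR3, a growth factor receptor gene, was at 103 and 121 CPM against 62.6, 66.2 and 69.7 CPM, a 1.69-fold fall (adjusted p = 0.0337). Its relatives FGFR1, FGFR2, FGFR4 and FGFRL1 were not called.

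The other genes of the 20 largest falls had mixed roles. PLCH2 and PLCXD3, of the phosphoinositide phospholipase C family and its relatives, were 5.17-fold and 3.90-fold lower. They were 2 of 15 tested in that list, beside 0.836% of all genes tested. In p53 replicate 2 PLCXD3 was at 7.12 CPM, within the range of the LLPSEp53_1 libraries. SUSD2, a membrane protein gene, was at 4.92 and 6.33 CPM with p53 and at 1.03, 1.14 and 1.05 CPM with LLPSEp53_1, a 5.22-fold fall (adjusted p = 0.00493). TNS1, a focal adhesion gene, fell 5.12-fold and ENTPD2, an ectonucleotidase gene, 3.63-fold. TMEM132E, ANKRD34B, VSTM2B and the transcription factor gene ONECUT3 fell between 3.76-fold and 6.36-fold. WFDC21P fell 4.42-fold, and in p53 replicate 2 it stood at 0.39 CPM, below the 3 LLPSEp53_1 libraries.

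**Figure D2:**
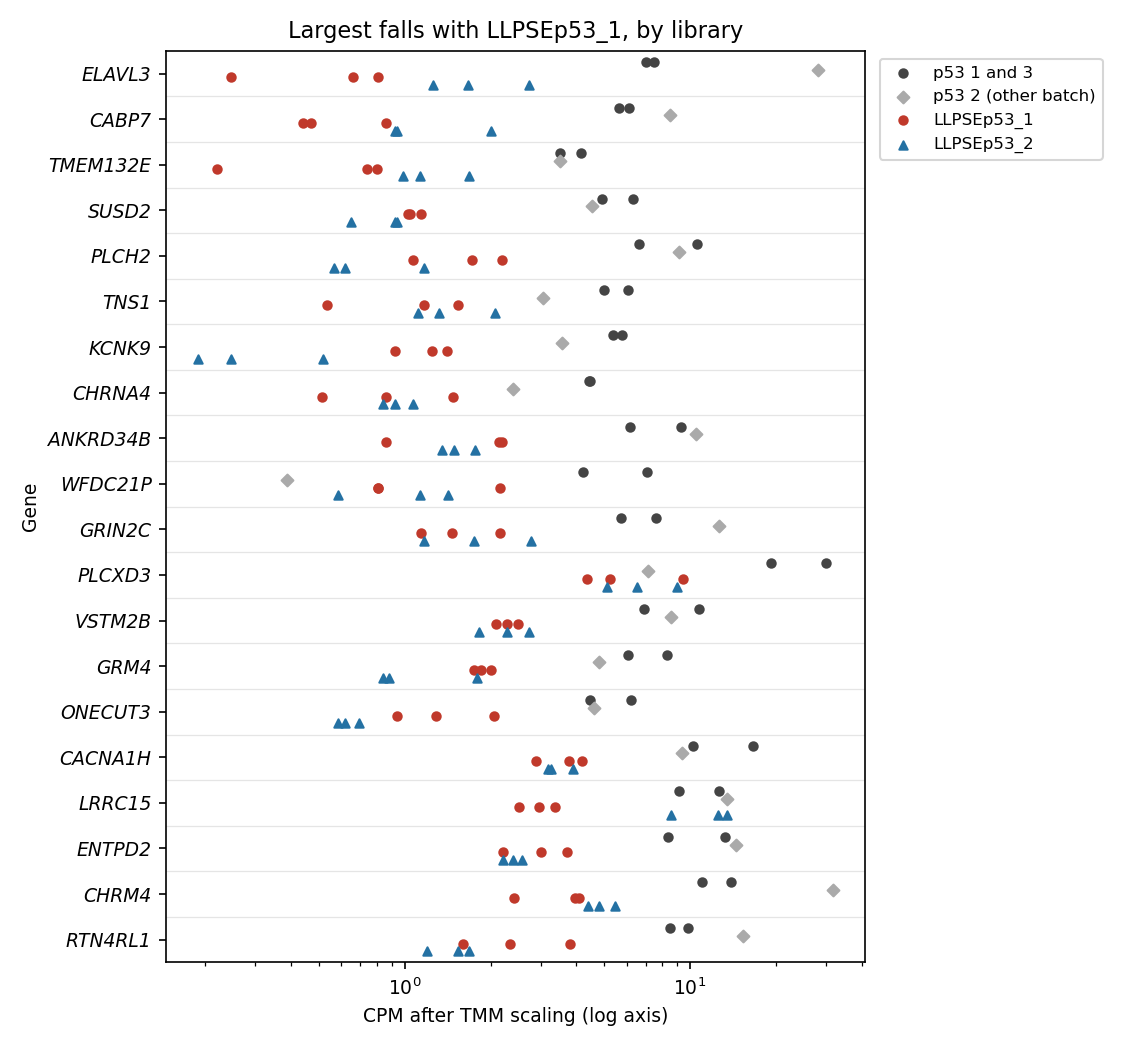
The 20 largest falls among called genes of at least 1 in average log2 CPM, 1 point per library, in CPM on a log axis. LLPSEp53_1 (red) lies below p53 replicates 1 and 3 (black) in every row, which the choice of these genes required. p53 replicate 2 (grey) is drawn apart because of its batch. LLPSEp53_2 (blue) is shown for reference, and only in the row of LRRC15 does it reach the range of p53.

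A few abundant genes were among the falls. SLC38A2, an amino acid transporter gene, had the highest level, at 2320 and 2227 CPM with p53 and at 1503, 1103 and 1055 CPM with LLPSEp53_1, a 1.86-fold fall (adjusted p = 0.0322). THBS1, which encodes the matrix protein thrombospondin, was at 145 and 182 CPM against 106, 71.6 and 79.6 CPM (1.92-fold lower, adjusted p = 0.0396). The transcription factor genes RUNX3 and FOXC1 were 1.65-fold and 1.71-fold lower (adjusted p = 0.0353 and 0.0216). KIF26A, a kinesin family gene, was 1.95-fold lower (adjusted p = 0.0473). ARC, an immediate early gene of neurons, was at 93.5 and 101 CPM against 43.9, 51.5 and 52.0 CPM (1.98-fold lower, adjusted p = 0.0161). It was the 1 call among 34 immediate early genes, beside 0.888% called in either direction over all genes tested.

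The 9 rises formed a short list of unlike genes. C11orf96 (ENSG00000187479, chr11:43942505-43944338, plus strand) was at 3.52 and 4.22 CPM with p53 and at 10.8, 13.6 and 14.8 CPM with LLPSEp53_1, a 3.38-fold rise (log2 difference 1.76, SE 0.23, adjusted p = 0.00535, edgeR). It shares exon bases with noncoding genes on both strands. RNF144B, a ubiquitin ligase gene (chr6:18387350-18468874, plus strand), was at 18.5 and 15.7 CPM against 42.0, 43.9 and 30.3 CPM, a 2.27-fold rise (SE of log2 0.22, adjusted p = 0.0287). ULBP2, a ligand of the NKG2D receptor of natural killer cells, was at 24.0 and 21.6 CPM against 43.3, 47.9 and 48.1 CPM, a 2.04-fold rise (SE of log2 0.15, adjusted p = 0.00912). Its groups were well apart. The other 6 NKG2D ligand genes tested were not called, with log2 differences from -0.29 to 0.30.

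HSPA6, an inducible HSP70 gene, was at 2.94 and 4.16 CPM with p53 and at 7.25, 8.78 and 11.8 CPM with LLPSEp53_1, a 2.61-fold rise (adjusted p = 0.0322). Its near-identical copy HSPA7 can share its reads. None of the other 15 HSP70 and HSP110 genes tested was called in edgeR, and 10 of the 16 were below 0. PPP1R3C, which targets a phosphatase to glycogen, was at 7.35 and 5.52 CPM against 15.2, 17.8 and 15.6 CPM, a 2.52-fold rise (adjusted p = 0.0138). CEMIP, which takes part in hyaluronan breakdown, was at 34.1 and 25.9 CPM against 56.2, 54.3 and 55.8 CPM, a 1.85-fold rise (adjusted p = 0.0334). WNT9A and the zinc finger gene ZNF30 rose 1.74-fold and 1.75-fold (adjusted p = 0.045 and 0.0422). NHLH2, a neuronal transcription factor gene, had 4 reads in each of p53 replicates 1 and 3 and 20, 25 and 24 reads with LLPSEp53_1 (adjusted p = 0.0287). In p53 replicate 2 it had 28 reads.

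**Figure D3:**
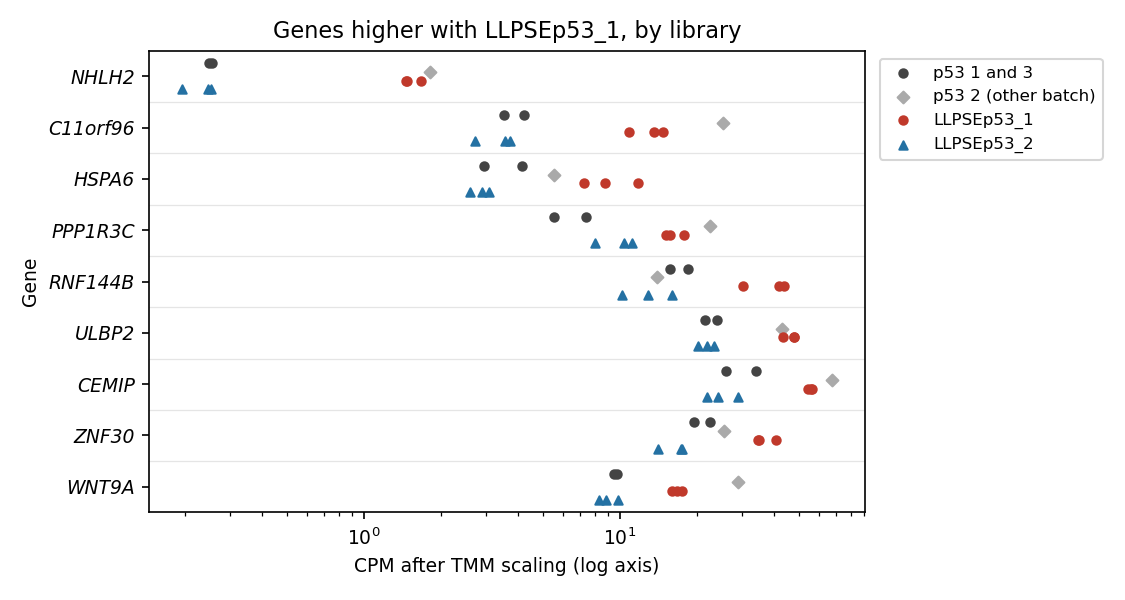
The 9 genes called higher with LLPSEp53_1, 1 point per library, in CPM on a log axis. LLPSEp53_1 (red) lies above p53 replicates 1 and 3 (black) in every row, and LLPSEp53_2 (blue) lies below LLPSEp53_1 in every row. p53 replicate 2 (grey) is above LLPSEp53_1 in 5 rows and below it in 4.

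p53 replicate 2, which set no p53 level, was above all 3 LLPSEp53_1 libraries in 140 of the 146 falling genes, below them in 4 and among them in 2. Over all genes tested it was above them in 38.8% and below them in 35.1%. For the rises it was below the LLPSEp53_1 libraries in 4 of 9 (HSPA6, RNF144B, ULBP2 and ZNF30) and above them in 5. These counts use the same LLPSEp53_1 libraries as the calls and are no independent check.

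Genes that p53 itself raises were described from the separate libraries of 2023. There WT was higher than Ctrl in 524 of 16156 genes tested (3.24%), 280 of them by at least 2-fold (1.73%). Of these 280, 269 were tested here. With LLPSEp53_1, 42 of the 269 were lower and 4 higher (CEMIP, HSPA6, NHLH2 and RNF144B), beside 0.836% and 0.0515% of all genes. Their median log2 difference was -0.35, against 0.00 for the other 17190 genes, and 195 were below 0. Without p53 replicate 3 none of them was called in edgeR, while the median was -0.34. Without p53 replicate 1 the calls were 11 lower, and without LLPSEp53_1 replicate 2 they were 6 lower.

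The medians did not change steadily with the size of the WT response. Genes raised 2-fold to 2.83-fold by WT had a median of -0.28 (96 genes, 14 lower), and those raised 2.83-fold to 4-fold had one of -0.36 (61 genes, 8 lower). For 4-fold to 8-fold the median was -0.46 (53 genes, 14 lower), and for 8-fold or more it was -0.30 (59 genes, 6 lower and 2 higher). Of the genes with the largest WT rises, NSG1, HES2, DRAXIN and BTG2 were not called with LLPSEp53_1. NSG1, a neuronal vesicle gene, was at 21.6 and 15.1 CPM with p53 and at 13.5, 12.1 and 12.6 CPM with LLPSEp53_1 (log2 difference -0.53, SE 0.18, adjusted p = 0.255). HES2, DRAXIN and BTG2, a transcriptional repressor, an axon guidance and an antiproliferative gene, had log2 differences of -0.38, -0.32 and -0.24 (SE 0.21, 0.17 and 0.18, adjusted p = 0.459, 0.447 and 0.565).

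Conversely, 121 of the 146 falling genes were tested in 2023, where 47 were higher with WT, 0 lower and 74 not called, beside 3.24% higher and 0.873% lower of all genes tested there. Of the 9 rises, 5 were higher with WT and 4 were not called. ELAVL3, for example, was at 0.72 to 0.94 CPM in WT and at 0.11 to 0.77 CPM in Ctrl, both far below its 7.03 and 7.51 CPM with p53 in 2022. The libraries of the different years were scaled separately, and the year and the construct cannot be told apart in such a pair of levels.

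LLPSEp53_2, the second construct, was compared with LLPSEp53_1 in the same fit. Of 17459 genes 65 were called (0.372%), 61 lower in LLPSEp53_2 (0.349%) and 4 higher (0.0229%). These counts moved with single libraries: 23 were lower and 1 higher without LLPSEp53_1 replicate 2, 145 and 53 without LLPSEp53_1 replicate 3, 24 and 1 without LLPSEp53_2 replicate 2, and 19 and 2 without LLPSEp53_2 replicate 3. Without LLPSEp53_2 replicate 1, 21 were lower, and without LLPSEp53_1 replicate 1, 11 were higher. With no batch term 2 were lower and 1 higher. Among the 146 genes that were lower with LLPSEp53_1 than with p53, 142 were not called between the constructs. The median log2 difference of the 146, LLPSEp53_2 minus LLPSEp53_1, was 0.04, with quartiles of -0.24 and 0.25, beside 0.00 with quartiles of -0.16 and 0.16 for all genes. The remaining calls were LRRC15, which was higher in LLPSEp53_2, and ARC, DOC2B and FGFR3, which were lower in it. LRRC15, a membrane protein gene, was at 12.6 and 9.12 CPM with p53, at 3.37, 2.95 and 2.52 CPM with LLPSEp53_1 and at 8.57, 13.5 and 12.5 CPM with LLPSEp53_2. LLPSEp53_2 was 3.91-fold above LLPSEp53_1 (log2 difference 1.97, SE 0.23, adjusted p = 0.00257).

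Of the 9 rises, 8 were lower in LLPSEp53_2 than in LLPSEp53_1, all but PPP1R3C, with a median log2 difference of -1.17. C11orf96 was at 2.71, 3.56 and 3.71 CPM with LLPSEp53_2, 3.93-fold below LLPSEp53_1 (adjusted p = 0.000718). RNF144B was at 10.2, 12.8 and 16.04 CPM, 2.97-fold below (adjusted p = 0.0034). ULBP2 was at 21.9, 23.3 and 20.2 CPM, 2.13-fold below (adjusted p = 0.0028). Both comparisons of the rises share the LLPSEp53_1 libraries, so a high reading there moves both, and the genes were picked for being high in them. For CDKN1A, LLPSEp53_2 was at 270.5, 281 and 232 CPM, below LLPSEp53_1 at an adjusted p of 0.0302.

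The lists of growth genes had medians above 0, and edgeR called 0 of their members. That of ribosomal proteins was added after these values were seen. The 84 genes of ribosomal proteins and their paralogs had a median log2 difference of 0.39 with 83 above 0, yet 0 were called by edgeR (36 higher without adjustment) and 1 by DESeq2. They took 4.56% and 4.26% of the counts in p53 replicates 1 and 3, and 4.50%, 5.44% and 6.50% with LLPSEp53_1. The ranges overlapped, since LLPSEp53_1 replicate 1 lay between the p53 libraries. Ribosome biogenesis genes had a median of 0.28 (28 tested, 10 higher without adjustment), G1/S genes 0.26 (36 tested, 11 higher without adjustment) and G2/M genes 0.23 (35 tested, 5 higher without adjustment). Of these 3 lists edgeR called 0, and DESeq2 called 1 G1/S gene higher. Over all genes tested 5.72% were higher without adjustment, and 8726 of 17459 were above 0. With no filter on low counts edgeR called 18 of the 84 ribosomal protein genes higher and 1 gene in each of the other 3 lists. Without LLPSEp53_1 replicate 1 it called 14 ribosomal protein, 2 ribosome biogenesis and 2 G2/M genes higher. NCL, which encodes nucleolin, was at 613 and 688 CPM against 824, 941 and 872 CPM (log2 difference 0.43, SE 0.13, adjusted p = 0.186). All list medians kept their sign under the other scalings, which moved the median of all genes by at most 0.02.

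**Figure D4:**
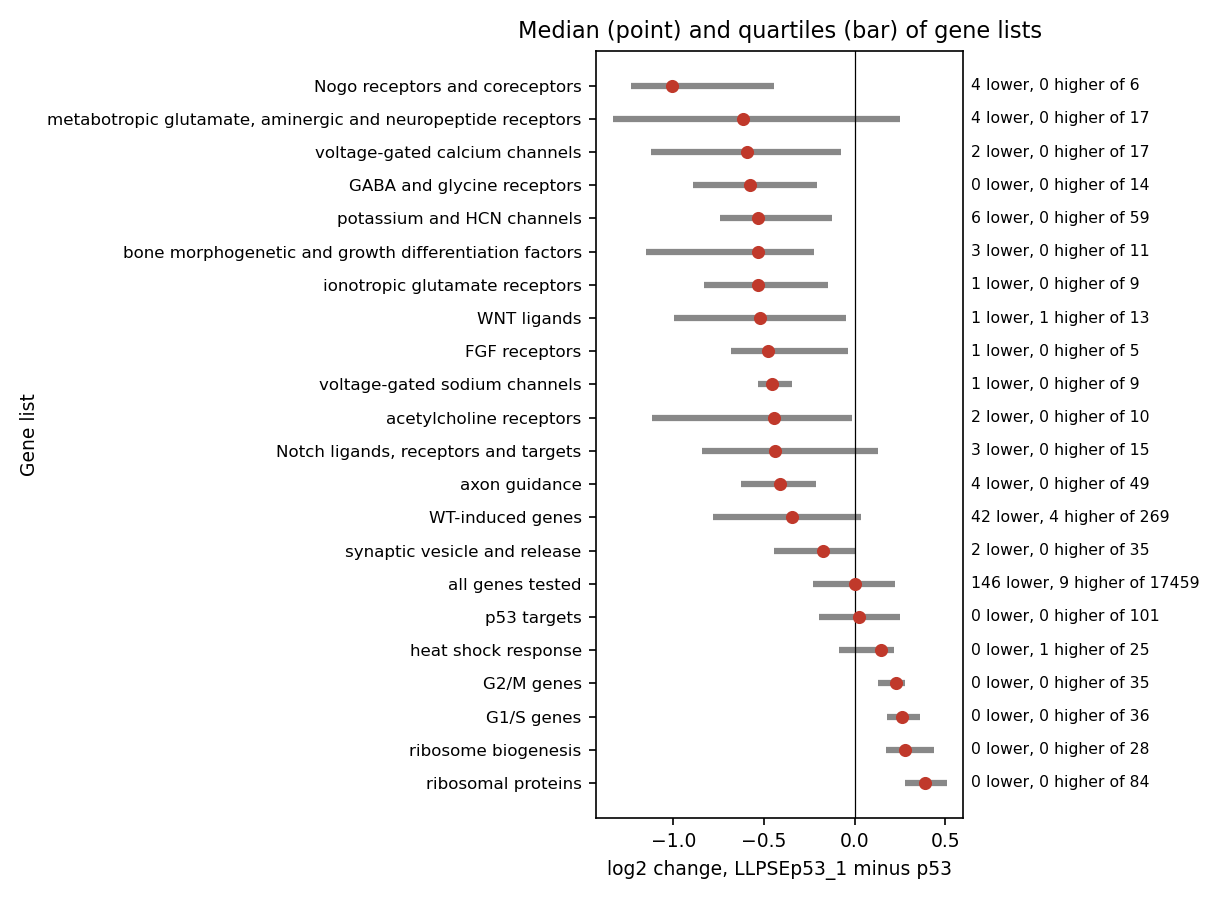
Median (point) and quartiles (bar) of the log2 difference between LLPSEp53_1 and p53 for 21 gene lists and all genes tested, with the number called lower and higher of those tested. The lists of receptors, channels and developmental ligands lie below 0 and those of ribosomes and the cell cycle above it. Several of the lists were added after these values were seen. The p53 targets lie near all genes, at 0.02.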

How the data were processed

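Per the submitters' processing notes, Trimmomatic 0.39, STAR 2.7.10a and GRCh38 were used; the counting tool, annotation and strand setting are not given in sources used here. Per the labels' protocols, Trizol total RNA went into NEBNext Ultra II RNA libraries. The deposited files hold raw read counts per gene without normalisation by the authors (61552 gene IDs, 61399 with a symbol in a table of gene names, 58352 in GENCODE 29, the source of positions and GC content). Column headers of LLPSEp53_1 lack the construct number, so titles assign these libraries.

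The 9 libraries of 2022 were fitted together in edgeR 4.0.16 (R 4.3.3) with TMM scaling, filterByExpr, the quasi-likelihood test and Benjamini-Hochberg adjustment at 0.05. A term for the other batch of p53 replicate 2 keeps it out of every difference. The 6 libraries of WT and Ctrl had a fit of their own. SE is the log2 difference divided by the square root of the F statistic, and a group overlaps when its range of CPM meets the other's.

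Named genes were CDKN1A and MDM2; the 20 largest falls and 10 largest rises among called genes without overlap whose log2 CPM averaged 1 or more; the 8 called genes of highest level; up to 4 called members per list; and the 5 largest WT rises of at least 2. Of these, 8 rises met the rule. Certain results of the rule are not reported here. NHLH2 and other genes outside it (SHH, NDRG4, PCSK5, RET, GDNF, ADCYAP1, EPHB3, BAX, BBC3, NCL, FDXR, APAF1) were named after their values were seen. The members and lists were chosen with earlier results of these data known. Lists of potassium channels, metabotropic glutamate, aminergic and neuropeptide receptors, bone morphogenetic factors, Notch, osmolytes, ribosomal proteins and mitochondrial mRNAs were added after these values were seen. All lists are described by counts and medians, with no set test. Among 13 mitochondrial mRNAs and 20 tested genes of a collagen list edgeR called 0 (3 and 4 without adjustment) and DESeq2 0. That list left out the collagen gene COL15A1, which edgeR called lower with LLPSEp53_1. Over all genes tested 7.34% were lower and 5.72% higher without adjustment.

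Alternatives were upper-quartile scaling, scaling by relative log expression, DESeq2 1.42.0, no filter, a replicate block, no batch term, p53 replicate 2 removed, only the groups compared, a GC trend removed, a 2-fold minimum, other WT sets and each library left out. The block with the GC trend was added after seeing the data. On simulated counts (17127 genes) for LLPSEp53_1 against p53, edgeR recovered 25.4% of genes changed 1.5-fold, 67.2% changed 2-fold and 100% changed 4-fold, with 5 other genes called. Changes were planted only in genes whose log2 CPM averaged 1 or more. The counts followed the trend of spread with level, with no spread of a gene's own, no batch effect and no shift shared within a library. Recovery in the real libraries may therefore differ.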

Additional observations from a re-analysis of the deposited data

Results flagged for a closer look

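The following called genes also differed between LLPSEp53_2 and LLPSEp53_1 in the test of that difference (edgeR, adjusted p under 0.05), given as the log2 difference LLPSEp53_2 minus LLPSEp53_1. Among the rises these were NHLH2 at -2.69, C11orf96 at -1.97, HSPA6 at -1.70, RNF144B at -1.57, ZNF30 at -1.17, CEMIP at -1.15, ULBP2 at -1.09 and WNT9A at -0.899. Among the falls ARC was at -1.79, DOC2B at -1.35, FGFR3 at -0.837 and LRRC15 at 1.97. LRRC15 thus rose 3.91-fold from LLPSEp53_1 to LLPSEp53_2, while ARC fell 3.47-fold. The LLPSEp53_1 libraries enter both comparisons. Groups of 3 libraries are too small for a test of single outlying samples, and none was made.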

How the results depend on the processing

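Calls depended on the settings. The signs of called genes did not change, which the lack of overlap between their groups largely fixed in advance. Without p53 replicate 3, the p53 level rests on 1 library assumed to vary like the others. Leaving out 1 library at a time, LLPSEp53_1 minus p53 ranged from 0 to 425 genes lower and from 0 to 143 higher, LLPSEp53_2 minus LLPSEp53_1 from 19 to 145 lower and from 1 to 53 higher, WT minus Ctrl from 31 to 658 lower and from 321 to 723 higher, and the WT-induced genes in LLPSEp53_1 minus p53 from 0 to 57 lower and from 0 to 8 higher.

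LLPSEp53_1 minus p53, with 146 lower and 9 higher, gave 214 and 44 in DESeq2, 356 and 206 with no filter on low counts, 93 and 1 with no batch term, 59 and 5 with only the 2 groups, and 224 and 34 with the GC trend removed. LLPSEp53_2 minus LLPSEp53_1, with 61 lower and 4 higher, gave 134 and 17 in DESeq2, 194 and 41 with no filter, 2 and 1 with no batch term, 106 and 8 with the GC trend removed, and 32 lower with only the 2 groups. WT minus Ctrl, with 524 higher and 141 lower, gave 221 lower in DESeq2, 295 lower with no filter, and 280 higher and 5 lower at a 2-fold minimum. The WT-induced genes, with 42 lower and 4 higher, gave 7 higher in DESeq2, 64 and 9 with no filter, 1 higher with no batch term, 18 and 1 with only the 2 groups, 7 higher with the GC trend removed, and 20 and 2 where WT had to raise a gene 4-fold. The cause was not tested. The other scalings and the removal of p53 replicate 2 moved no count past 1.5 times.

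Replicate numbers were not taken to pair the samples, because of the correlations of same-numbered deviations. These were -0.02, -0.05 and 0.14 for p53 and LLPSEp53_1. They were -0.37, -0.08 and -0.39 for the 2 constructs, and 0.09, 0.25 and 0.02 for Ctrl and WT. In no comparison were all over 0.1, and in none did every sample correlate best with its own number. Under other numbers, LLPSEp53_1 replicate 1 and LLPSEp53_2 replicate 3 correlated at 0.36, and LLPSEp53_1 replicate 3 and LLPSEp53_2 replicate 1 at 0.35. What these libraries share was not tested. The replicate block gave 38 lower and 2 higher for LLPSEp53_1 minus p53, 29 lower for LLPSEp53_2 minus LLPSEp53_1, 894 higher and 751 lower for WT minus Ctrl, and 16 lower and 0 higher for the WT-induced genes. The replicate block with the GC trend removed gave 35 and 0, then 35 and 2 for LLPSEp53_2 minus LLPSEp53_1, and 16 and 0 for the WT-induced genes.

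No called gene reversed, which is no separate check because all of them were without overlap between the groups. With no batch term CDKN1A turned to -0.022 and MDM2 to -0.32 on the log2 scale, where p53 replicate 2 counts as a p53 library. MDM2 turned to -0.04 without p53 replicate 3 and to -0.046 without LLPSEp53_1 replicate 2, within a range of -0.046 to 0.25 over the libraries left out. Neither was called in these settings. Depth limits the low genes: 59 of the falls were under 10 CPM with p53.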

Other observations

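The following were picked after their values were seen. Of 9 genes of osmolyte transport and response, SLC5A3, SLC38A2 and ATP1B1 were lower with LLPSEp53_1 in edgeR, and 0 were higher. All 9 were below 0 (median log2 difference -0.66). Over all genes tested 0.836% were lower, and 8733 of 17459 were below 0. SLC5A3, the transporter gene for myo-inositol, was at 182 and 227 CPM in p53 replicates 1 and 3 and at 106, 57.4 and 55.9 CPM with LLPSEp53_1, a 2.80-fold fall (adjusted p = 0.0228). In p53 replicate 2 it was at 61.7 CPM, within the LLPSEp53_1 range. It shares 176 exon bases with MRPS6 on the same strand. ATP1B1, a subunit gene of the sodium pump, was at 161 and 191 CPM against 117, 109 and 108 CPM, a 1.58-fold fall (adjusted p = 0.045). In p53 replicate 2 it was at 88.7 CPM, below all 3.

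In 2 cases a ligand and its receptor gene were both lower. GDNF was at 26.6 and 26.6 CPM with p53 and at 15.4, 14.5 and 10.8 CPM with LLPSEp53_1 (1.96-fold lower, adjusted p = 0.0374), and its signalling receptor gene RET was at 26.2 and 26.3 CPM against 11.6, 12.2 and 9.29 CPM (2.38-fold lower, adjusted p = 0.00535). ADCYAP1, which encodes the peptide PACAP, was 2.77-fold lower (adjusted p = 0.0337) and its receptor gene ADCYAP1R1 3.30-fold lower (adjusted p = 0.0349). EPHB3, an ephrin receptor gene, was at 25.3 and 27.4 CPM against 8.86, 9.85 and 8.92 CPM, a 2.86-fold fall (adjusted p = 0.0022). No test was made of whether such pairs fall together more often than other genes.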
